A study of Mus musculus with 18 samples.

Results

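A set of 10 genes that encode transcription factors of B cell identity and fate was followed through ChIP-seq peak lists of the histone demethylase KDM2A and of its substrate, dimethylated lysine 36 of histone H3 (H3K36me2). They were *Pax5*, *Ebf1*, *Bcl6*, *Irf4*, *Irf8*, *Prdm1*, *Bach2*, *Ikzf1*, *Foxo1* and *Pou2af1*, named by symbol and located in GENCODE release M21 on mouse genome GRCm38. They make up 10 of 21938 protein-coding genes and 10 of 55450 genes of that annotation, and the rule that lists them uses no measured value. Peaks were read within 2 kb of any transcription start site (TSS) of a gene, here called its promoter windows, and over its body from start to end.

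The study compared splenic B cells of C57BL/6 mice that carry intact *Mir155* (WT) and of *Mir155*-deficient mice (KO), to ask where KDM2A and H3K36me2 lie when miR-155 is missing. Cells purified by removal of CD43+, Ter119+ and CD4+ cells were kept for 2 days at 1% O2 with IL-4 at 4 ng/ml, anti-CD40 at 1 µg/ml and F(ab′)2 against IgM at 5 µg/ml, so both genotypes were activated and hypoxic. Each genotype had 3 KDM2A and 3 H3K36me2 libraries whose chromatin was crosslinked with formaldehyde after EGS (a longer protein crosslinker), and in every group replicate 1 was male and replicates 2 and 3 were female. The KO animals lacked miR-155 throughout, the cells were a culture rather than germinal centre cells, and the KDM2A antibody was not a commercial one. Peak lists hold no expression, so the loss of *Mir155* could not be checked in them.

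PAX5 and EBF1 establish and hold the B cell programme together with IKZF1 (Ikaros) and FOXO1, and POU2AF1 (OCA-B, also called BOB.1) is the coactivator that octamer-binding factors use in B cells. BCL6 and BACH2 maintain the germinal centre state and restrain plasma cell formation, which PRDM1 (BLIMP1) drives. IRF4 promotes plasma cell fate at high levels, and IRF8 is its counterpart in B cells and in myeloid cells. KDM2A binds unmethylated CpG through a CXXC zinc finger and removes methyl groups from H3K36me2, a mark of intergenic chromatin and of broad domains within genes.

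The KDM2A lists held 23372 to 29105 peaks in WT and 15387 to 21705 in KO, covering 0.770% to 1.11% and 0.433% to 0.715% of the genome. The H3K36me2 lists covered 4.17% to 5.33% of the genome in WT and 3.63%, 1.59% and 1.45% in KO replicates 1, 2 and 3. The male KO library thus stood apart from both female KO libraries, with 106720 H3K36me2 peaks against 37447 and 45180. In WT the male library was instead the lowest. Sex and the single library cannot be told apart within KO, so H3K36me2 coverage of the members and of their flanks is given by library. Because KO lists covered less of the genome, lower KO coverage was the rule for all genes, and the members are read against that background.

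The label was checked with marker genes, although a peak is not expression. A KDM2A promoter peak in all 6 libraries was present at 5 of 10 B cell markers, 1 of 8 T cell markers, 0 of 7 myeloid markers and 0 of 5 erythroid markers.

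The promoters below show how unlike the members are in CpG, the dinucleotide that KDM2A recognises, and were picked because KDM2A covered most of a gene (*Irf8*), much of a gene in WT (*Irf4*), or a short stretch over a CpG-rich (*Ikzf1*) or CpG-poor start (*Pou2af1*). Each is the 250 bases before a RefSeq gene start on GRCm38.p6, printed 5′ to 3′ on the coding strand, with every CG in capitals.
Irf8, chr8:120736108-120736357, plus strand: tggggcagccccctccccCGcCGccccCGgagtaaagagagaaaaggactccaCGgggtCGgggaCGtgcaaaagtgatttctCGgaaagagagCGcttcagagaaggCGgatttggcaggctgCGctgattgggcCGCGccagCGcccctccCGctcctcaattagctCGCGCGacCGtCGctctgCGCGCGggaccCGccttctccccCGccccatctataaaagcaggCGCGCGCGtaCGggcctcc
Irf4, chr13:30748983-30749232, plus strand: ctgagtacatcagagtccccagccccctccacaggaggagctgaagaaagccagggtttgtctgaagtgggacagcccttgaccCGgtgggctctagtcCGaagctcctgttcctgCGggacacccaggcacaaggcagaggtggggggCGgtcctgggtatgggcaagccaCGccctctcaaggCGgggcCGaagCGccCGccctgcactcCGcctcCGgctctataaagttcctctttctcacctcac
Ikzf1, chr11:11685675-11685924, plus strand: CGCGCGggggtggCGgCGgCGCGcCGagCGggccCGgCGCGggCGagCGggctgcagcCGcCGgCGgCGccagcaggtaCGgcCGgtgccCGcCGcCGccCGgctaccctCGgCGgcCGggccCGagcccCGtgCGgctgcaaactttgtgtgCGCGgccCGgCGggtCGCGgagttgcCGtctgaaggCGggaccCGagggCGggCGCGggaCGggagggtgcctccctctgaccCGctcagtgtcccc
Pou2af1, chr9:51213440-51213689, plus strand: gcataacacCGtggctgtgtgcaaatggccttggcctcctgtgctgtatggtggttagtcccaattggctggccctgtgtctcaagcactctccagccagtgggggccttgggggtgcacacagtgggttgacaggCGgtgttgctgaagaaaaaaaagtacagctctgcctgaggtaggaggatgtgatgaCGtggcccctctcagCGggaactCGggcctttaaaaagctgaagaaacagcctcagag
The motif searched was CG, which reads the same on both strands, and 92.1% of the 32851 promoters of the RefSeq table hold at least 1. The printed *Ikzf1* promoter held 44, a count reached by 0.539% of those promoters, and the printed *Irf8* promoter held 29, reached by 6.78%. Both genes have a second promoter in the table that is not shown, with 1 CG for *Ikzf1*, 5174 bp into the gene, and 8 for *Irf8*, 2281 bp into the gene. The *Irf4* promoter held 11, reached by 35.6%, and the *Pou2af1* promoter held only 5, below the median of 6 and reached by 55.6%. KDM2A peaks overlapped these bases of *Irf8*, *Irf4* and *Pou2af1* in 6 of 6 libraries and those of *Ikzf1* in 5 of 6. H3K36me2 peaks touched the printed bases of *Irf4* in 2 WT libraries and of *Irf8* in 1 WT library, and those of *Ikzf1* and *Pou2af1* in none. All 10 members matched the table, with 14 promoters.

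KDM2A was called at the promoters of most members in every library. A KDM2A promoter peak was present in all 6 libraries at 7 of 10 members, *Pax5*, *Irf4*, *Irf8*, *Bach2*, *Ikzf1*, *Foxo1* and *Pou2af1*, whereas 26.4% of the 21938 protein-coding genes had one. *Ebf1* and *Bcl6* lacked a peak only in WT replicate 3. *Prdm1*, the plasma cell factor, had one in WT replicate 1 and KO replicate 2 alone. Of 30 other B cell transcription factors 22 had a KDM2A promoter peak in all 6 libraries, against 3 of 15 factors of other blood lineages. With only peaks of −log10 q of at least 2, the 7 members with a peak in every library became 2, and the 5786 protein-coding genes with one became 2397.

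*Pax5*, the factor that commits cells to the B lineage (chr4:44524757-44710487, minus strand), had the strongest KDM2A promoter peak of any member in the WT lists. Its fold, the authors' ratio of signal over the local control background, was 3.52, 3.62 and 3.42 in WT replicates 1 to 3 and 2.78, 2.85 and 2.99 in KO. Every WT library lay above every KO library. Within its own list this peak stood at percentile 96.4, 92.2 and 93.3 of fold in WT and at percentile 49.3, 64.2 and 77.7 in KO. The widest *Pax5* KDM2A peak spanned 4305, 5241 and 4201 bp in WT and 1514, 1479 and 3096 bp in KO, again with no overlap between genotypes. The log2 fold, after centring each library on its median, differed by −0.23 ± 0.11 (KO minus WT ± SE), with an adjusted p of 0.914 in limma over 5786 genes with a peak in all libraries. That fit called 0% of those genes (299 at an unadjusted p under 0.05), and 5.17% of them had all WT above all KO libraries, so 1 of 7 members tested is near what all genes showed. The peak belongs to a merged interval at chr4:44700775-44714605 that also holds the start of the unclassified transcript 5730488B01Rik, so these could not be separated.

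Promoter folds of the other members tested overlapped between genotypes once libraries were centred. *Irf8* had folds of 3.07, 3.22 and 3.30 in WT and 3.17, 3.23 and 3.24 in KO. *Irf4* had 3.22, 3.14 and 2.97 in WT and 3.29, 3.23 and 3.23 in KO, where as deposited the lowest KO value (3.226) lay just above the highest WT value (3.222). *Ikzf1* had 2.86, 2.82 and 2.79 in WT and 2.71, 2.72 and 2.74 in KO, which as deposited did not overlap either, in the opposite direction. *Bach2*, *Foxo1* and *Pou2af1* ranged from 2.57 to 3.46 over all libraries. *Bcl6* had 2.96 and 2.98 in the WT libraries with a peak and 2.95, 2.92 and 2.92 in KO, and *Ebf1* had 2.87 and 3.50 in WT and 2.65, 3.06 and 3.53 in KO. After centring, *Pax5* was the 1 member of 7 tested whose libraries did not overlap.

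**Figure D1:**
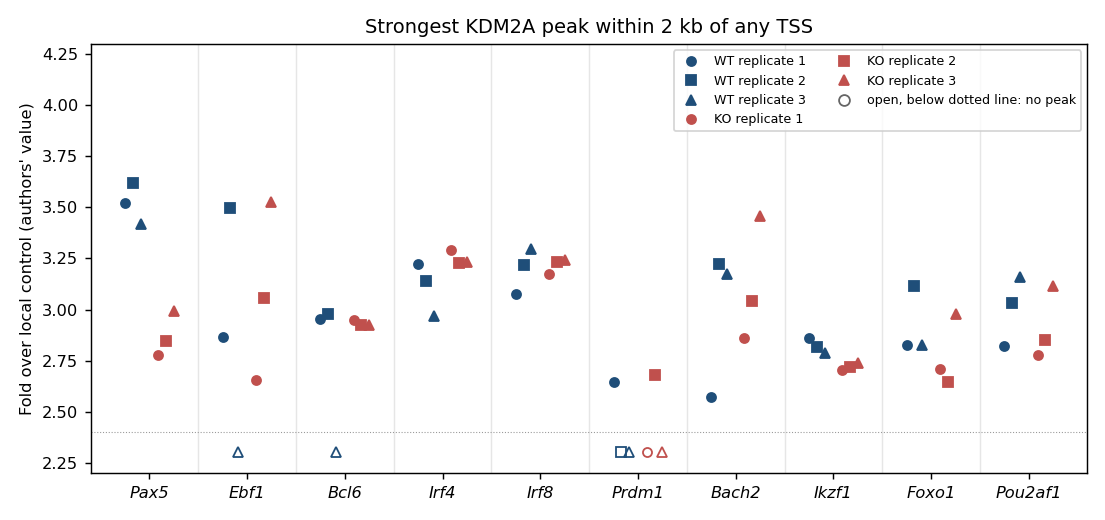
Strongest KDM2A fold over the local control (y axis, a ratio) in the promoter windows of each member, with 1 point per library. An open point below the dotted line stands for a library where no peak was called and holds no value. The 3 WT libraries of *Pax5* sit between 3.42 and 3.62, above its KO libraries at 2.78 to 2.99, while *Ikzf1* (WT higher) and *Irf4* (KO higher) separate by small margins and the other members with a peak in every library overlap.

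In the share of the promoter windows under KDM2A peaks *Pax5* again stood apart, but most other members changed direction. The centred fold had a lower KO mean at 2 and a higher one at 5 of the 7 members tested. *Pax5* had 37.3%, 42.6% and 38.9% covered in WT and 21.7%, 15.8% and 36.4% in KO. It was the 1 member of 10 whose libraries did not overlap, in a comparison where 12.5% of 12288 genes tested had all WT above all KO libraries. *Irf4* had 63.5%, 60.0% and 55.9% in WT and 54.8%, 14.6% and 61.1% in KO, so that its lower KO mean came from 1 library (difference −16.3 ± 13.6 percentage points, limma adjusted p = 0.689, and −1.87 without KO replicate 2). *Foxo1* had 32.8%, 57.1% and 43.6% in WT and 64.5%, 41.4% and 49.1% in KO. Limma called 0% of the 12288 genes (942 at an unadjusted p under 0.05), and 6 of 10 members had a lower and 4 a higher KO mean. These became 4 lower and 6 higher when each library was divided by its mean over coding genes. Without WT replicate 3 or KO replicate 2 they were 8 lower and 2 higher. *Prdm1*, among the 6 lower ones, passed the filter only through WT (6.87%, against 0.849% in KO), so the filter fixed its direction.

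KDM2A over *Irf8* was not limited to the promoter but was called along the gene, in 1 peak in WT replicate 1 and in several peaks in the other libraries. KDM2A peaks covered 100%, 68.1% and 74.4% of the *Irf8* body (chr8:120736358-120756694, plus strand, 20337 bp) in WT and 49.8%, 65.1% and 77.4% in KO. The peaks of the 6 libraries merged into a single interval of 34321 bp at chr8:120733618-120767938, and in WT replicate 1 one called peak spanned 28290 bp. In the 10 kb beyond the 3′ end KDM2A still covered 88.8%, 87.4% and 67.0% in WT and 36.1%, 29.6% and 35.8% in KO. By mean KDM2A coverage *Irf8* ranked 15 of 14164 protein-coding genes of at least 10 kb in WT and 12 in KO. Among the 10051 genes at least as long as *Irf8*, it ranked 1 in both genotypes. A predicted protein-coding gene, Gm20388, overlaps *Irf8* and its upstream region, and peaks could not be divided between them.

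*Irf4*, the relative of *Irf8* that rises in plasma cell differentiation, showed a similar but shorter domain. KDM2A covered 78.3%, 50.1% and 53.5% of its body (chr13:30749226-30766976, plus strand, 17751 bp) in WT and 15.9%, 8.94% and 49.2% in KO. All WT libraries lay above all KO libraries, narrowly for KO replicate 3. The widest *Irf4* peak was 9066, 7405 and 7241 bp in WT and 2381, 573 and 3685 bp in KO. It ranked 53 of 14164 genes of at least 10 kb in WT and 140 in KO. The KO minus WT difference was −36.0 ± 15.2 percentage points (limma adjusted p = 0.514), and it was −16.7 ± 10.8 for *Irf8* (adjusted p = 0.578), or −7.12 without WT replicate 1 and −9.57 without KO replicate 1.

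The other members carried KDM2A in short stretches. *Pax5* had 9.96%, 8.61% and 6.81% of its body covered in WT and 3.45%, 2.29% and 6.73% in KO, a difference of −4.31 ± 2.15 percentage points (limma adjusted p = 0.519). *Bach2* had 6.29%, 4.65% and 4.99% in WT and 2.03%, 1.35% and 3.62% in KO (difference −2.98 ± 1.28, limma adjusted p = 0.514). *Foxo1* had 7.22%, 5.36% and 4.37% in WT and 2.65%, 2.85% and 3.60% in KO (difference −2.62 ± 1.42, limma adjusted p = 0.531). In these genes, as in *Irf4*, no KO library reached a WT library. *Ikzf1* had 6.46%, 2.59% and 4.35% in WT and 0.634%, 0.285% and 2.96% in KO, and *Ebf1*, *Bcl6*, *Prdm1* and *Pou2af1* stayed at or below 5.28% in every library.

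In the fit of KDM2A body coverage, which was added after the values had been seen, all 8 members tested had a lower KO mean, and 4 did not overlap. Over 9514 genes tested 16.6% had all WT above all KO libraries, and limma called 0% of them (867 at an unadjusted p under 0.05). The median difference was −3.08 percentage points for the members and −2.01 over all genes tested. When each library was divided by its mean coverage over coding genes, *Irf8* turned higher in KO and 6 of the 8 members kept a lower KO mean.

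**Figure D2:**
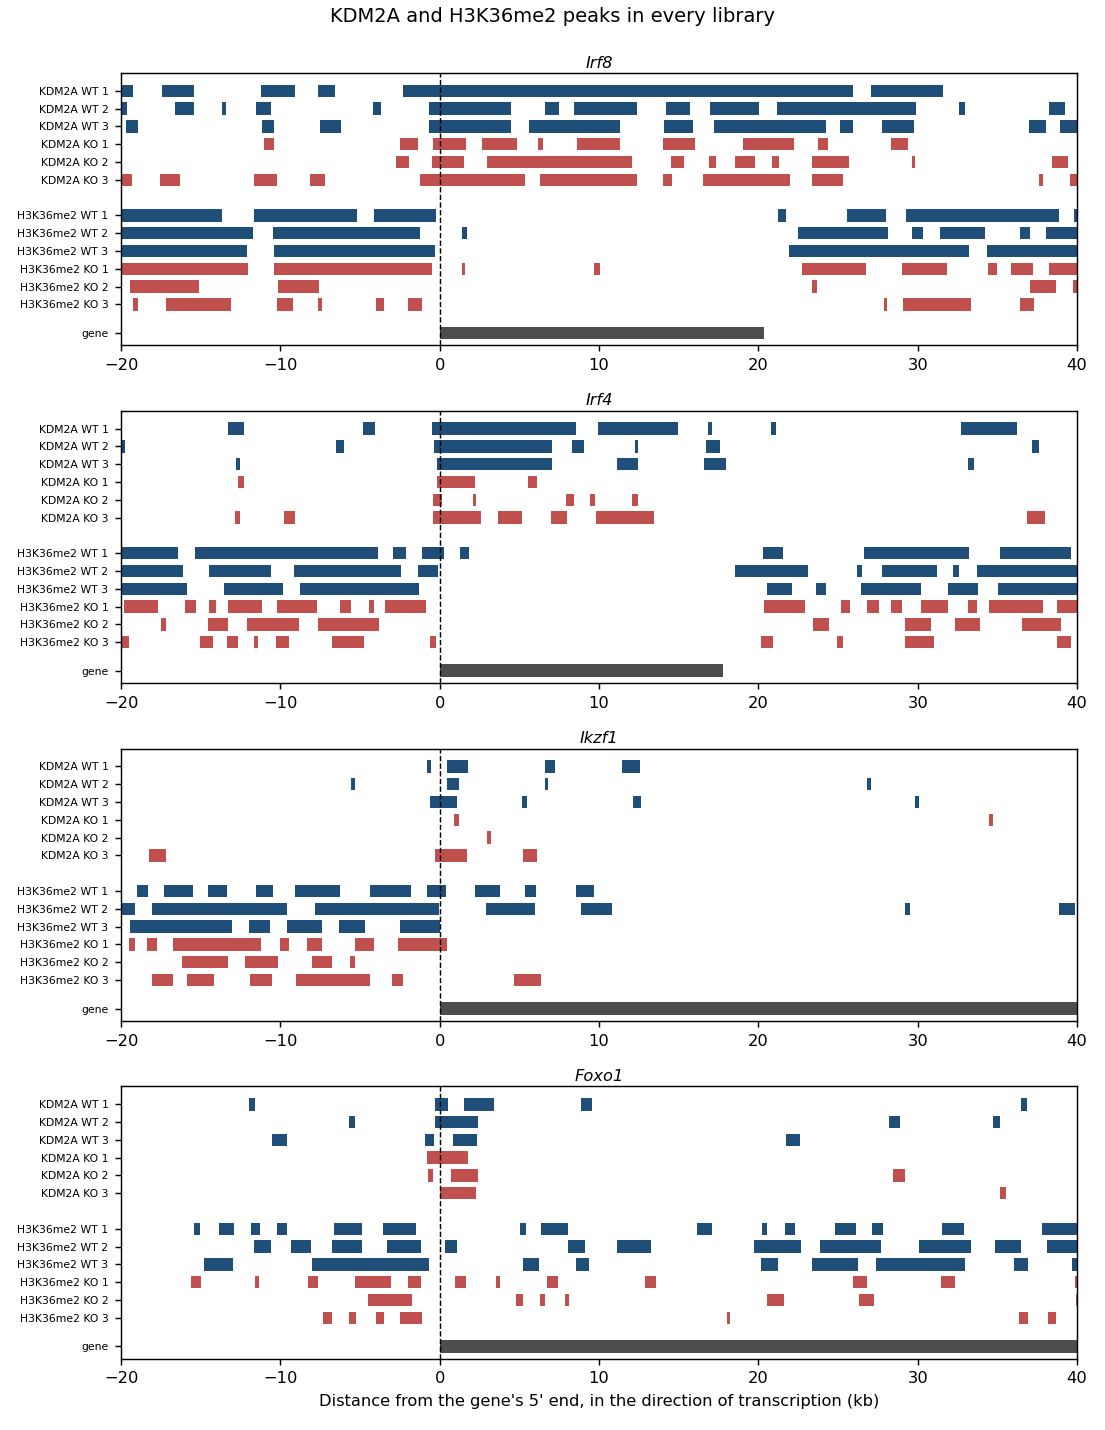
Positions of KDM2A and H3K36me2 peaks in every library around *Irf8*, *Irf4*, *Ikzf1* and *Foxo1*, with distance from the 5′ end of the gene in kb on the x axis and 1 row per library (blue WT, red KO). KDM2A spreads over the bodies of *Irf8* (49.8% to 100% covered) and, in WT, of *Irf4* (50.1% to 78.3%, against 8.94% to 49.2% in KO), from which H3K36me2 is nearly absent, and sits in a short stretch at the starts of *Ikzf1* and *Foxo1*.

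The CpG content under KDM2A differed between members. In *Ikzf1* the bases under KDM2A in at least 2 WT libraries held 86.7 CpG per kb, against 8.82 in the rest of the body. In *Bcl6* the values were 83.9 and 21.7, and in *Foxo1* 72.0 and 10.9. In *Bach2* and *Ebf1* they were 40.9 against 11.6 and 39.2 against 9.82. In *Pax5* they were 27.3 and 12.99, and in *Pou2af1*, with its CpG-poor start, 11.4 and 7.26. In the broad domain of *Irf8* they were 19.3 under KDM2A and 21.6 in the small remainder, and in *Irf4* 15.2 and 11.3. The median body of the 14164 coding genes of at least 10 kb held 11.2 CpG per kb, and that of *Irf8* as a whole held 19.8, more than 94.1% of them. These are descriptions of the called bases, with no test.

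Merged KDM2A intervals in the windows and bodies of the members showed where binding was called in 1 genotype only. Of 32 intervals bound in a genotype, meaning a peak in at least 2 of its 3 libraries, 14 belonged to both, 16 to WT alone and 2 to KO alone. That is 43.8%, 50% and 6.25%, beside 55.3%, 35.8% and 8.96% of 16511 bound intervals genome-wide. In all, 3 of the 32 intervals had a peak in all WT libraries and in no KO library, beside 475 of the 16511. They lay in an untranslated exon at the 3′ end of *Irf4* (chr13:30765816-30767160), in an intron of *Bach2* (chr4:32404106-32406251) and in an intron of *Foxo1* (chr3:52313828-52315756). A rule modelled on that of the study was applied to the mean over libraries of the strongest deposited fold in an interval, which is not the averaged signal over input that the study used. It asks for a mean over 3 and, where both genotypes are bound, also for a ratio of means above 2 to the power 0.23. By it the *Pax5* promoter interval was WT-enriched, with mean folds of 3.52 and 2.87. The other WT-enriched intervals were a *Bach2* intron (chr4:32390213-32391811, 3.32 in WT and 2.61 in the single KO library with a peak) and an interval in the first *Ebf1* promoter region (chr11:44618412-44621745, 3.18 and 2.64). An adjoining *Ebf1* interval (chr11:44616781-44618395) was KO-enriched, with 3.29 in KO and 2.85 in the single WT library with a peak. The 3 WT-enriched and 1 KO-enriched intervals of 32 stand beside 1509 and 315 of 16511 genome-wide.

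H3K36me2 over the gene bodies split the members into those that carried the mark and those that lacked it. *Foxo1*, a factor of early B cells and of the germinal centre dark zone (chr3:52268336-52353221, plus strand), had the highest percent of its body covered. In bases under peaks, *Ebf1* and *Bach2* had more in WT (means of 52918 and 49664 bp, against 32995 bp). Peaks covered 33.3%, 42.3% and 41.0% of the *Foxo1* body in WT and 22.2%, 6.64% and 4.82% in KO. *Prdm1* (chr10:44437177-44528501, minus strand) had 14.3%, 31.3% and 18.9% in WT and 10.8%, 7.12% and 3.585% in KO. *Bach2* (chr4:32238804-32586108, plus strand) had 13.7%, 15.1% and 14.0% in WT and 10.2%, 3.02% and 3.09% in KO. In each of these genes all WT libraries lay above all KO libraries, with the male KO library nearest to WT. *Ebf1* (chr11:44617317-45008091, plus strand) behaved alike, with 11.6%, 16.3% and 12.8% in WT and 7.48%, 2.62% and 2.18% in KO.

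The remaining members had little H3K36me2 in their bodies. *Pax5* had 1.18%, 2.91% and 4.34% in WT and 0.482%, 0% and 0.149% in KO. *Ikzf1* (chr11:11685003-11772926, plus strand) had 4.32%, 7.11% and 0.569% in WT and 1.19%, 0% and 1.90% in KO. The most KDM2A-covered members were almost without the mark. *Irf4* had 4.83% in WT replicate 1 and 0% in the other 5 libraries. *Irf8* had 1.47% in WT replicate 2, 2.71% in KO replicate 1 and 0% elsewhere. *Bcl6* (chr16:23965052-23988852, minus strand) did not exceed 1.31% in any library, and its windows also hold the start of Gm37419, a protein-coding gene annotated over it. *Pou2af1* (chr9:51213708-51240080, plus strand) was at 0% in every WT library and at 6.04%, 0% and 3.09% in KO.

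In the limma fit of H3K36me2 body coverage, 7 members had enough coverage to be tested, 6 had a lower KO mean, and 5 had all WT above all KO libraries, where 28.7% of 9804 genes tested did. *Pax5* passed the filter only through WT, and *Pou2af1*, the member with a higher KO mean, only through KO, so their directions were fixed by the filter. None passed the threshold, and limma called 0% of the 9804 genes, with 1899 at an unadjusted p under 0.05. The largest difference was that of *Foxo1*, −27.6 ± 8.18 percentage points (adjusted p = 0.253, with values from 0.0601 to 0.694 over the alternatives). For *Prdm1* it was −14.3 ± 5.93 (limma adjusted p = 0.256, and −9.41 without WT replicate 2), for *Ebf1* −9.45 ± 3.69 (0.253), for *Bach2* −8.86 ± 3.94 (0.259) and for *Pax5* −2.60 ± 1.33 (0.276). The median was −8.86 for the members and −5.24 over all genes tested. Without the male KO library, the *Foxo1* difference was −33.1 with an adjusted p of 0.0601 in limma, and still no gene was called.

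Whether members moved beyond the shift of the whole list depended on the scale. With log2(percent + 1) centred on each library's median over the genes tested, all 7 members had a higher KO mean, among them *Foxo1* by 0.28 ± 0.55 (limma adjusted p = 0.784). Their median difference of 0.75 lay below the 0.92 of all genes tested. A gene at 0% can go no lower on this scale, and the centring left the median over genes at 0.92 rather than 0. Without the male KO library 1567 genes passed the threshold, 2 members (*Bach2* and *Pou2af1*) among them. Limma called 0% of the 9804 genes (1010 at an unadjusted p under 0.05). The smallest adjusted p among members, 0.172, was that of *Pou2af1*, which is listed at 0 in every WT library and entered the test only through its KO coverage, so its direction was fixed by the filter. With the genome share of each list as the scale, 5 of the 7 members were lower in KO and *Foxo1* reversed to −0.70, so no direction beyond the list-wide shift was shown. When percent coverage was divided by its mean over coding genes, 5 of 7 were lower in KO and *Prdm1* reversed.

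After centring, H3K36me2 peak strength overlapped between genotypes at the members tested. In the 4 members with an H3K36me2 body peak in all 6 libraries (*Ebf1*, *Prdm1*, *Bach2* and *Foxo1*), the mean fold per library ranged from 2.48 to 2.81. On the log2 scale 2 of them had a lower and 2 a higher KO mean, with adjusted p-values of at least 0.913 in limma. Without centring of the libraries all 4 had a higher KO mean, and 12 genes, none of them a member, were called higher in KO. Limma called 0% of 3261 genes (181 at an unadjusted p under 0.05).

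**Figure D3:**
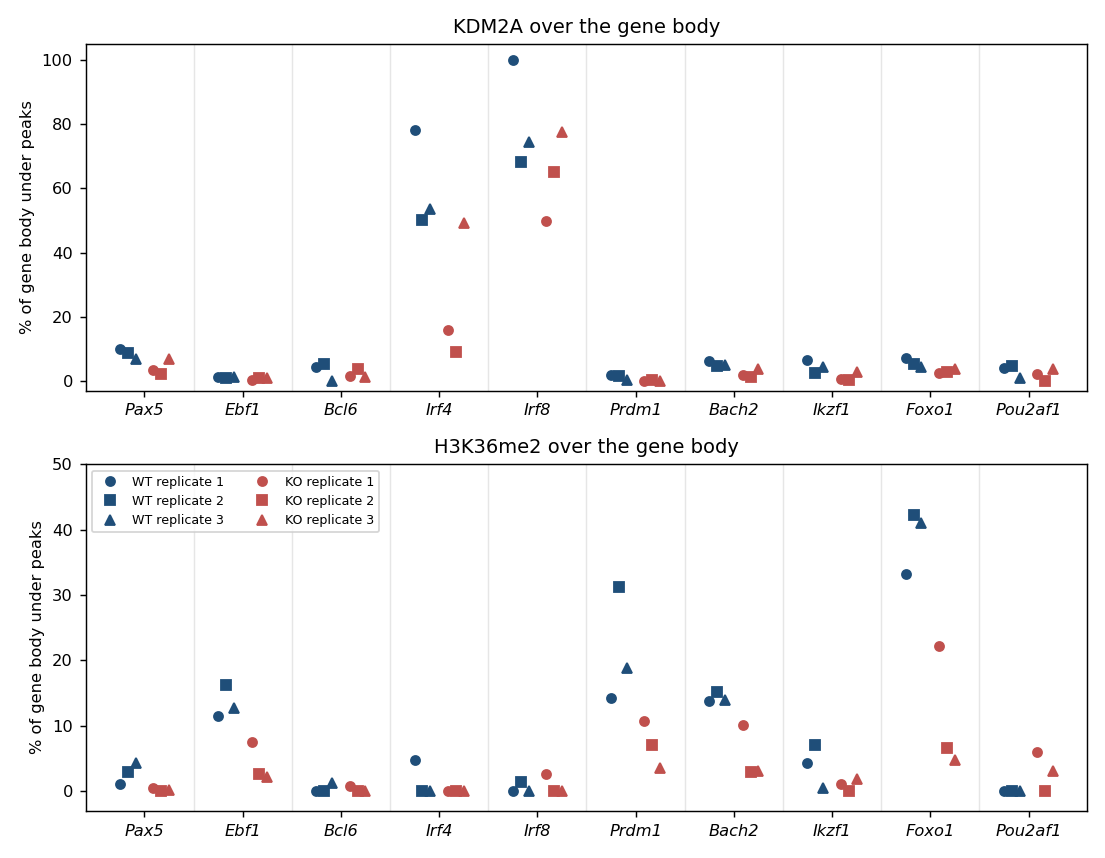
Percent of each gene body under KDM2A peaks and under H3K36me2 peaks, with 1 point per library. *Irf8* and *Irf4* are high for KDM2A and near 0 for H3K36me2, whereas *Foxo1*, *Prdm1*, *Bach2* and *Ebf1* have more H3K36me2 than KDM2A in every WT library, and for these 4 genes every WT library lies above every KO library in H3K36me2.

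Along the bodies of the marked genes, H3K36me2 in WT was highest between the ends. When each body was divided into 10 equal segments, *Foxo1* in WT reached its highest coverage in the ninth, 70.5% ± 25.6 (SD, n = 3), where KO had 19.3% ± 10.8, and had 16.4% ± 6.58 in the first and 2.58% ± 4.40 in the last in WT. *Bach2* was highest in the fourth, at 36.3% ± 4.73 in WT and 10.5% ± 10.2 in KO, and had 7.33% ± 4.50 in the first and 3.02% ± 2.05 in the last in WT. *Ebf1* was highest in the sixth, at 21.8% ± 4.59 in WT and 4.53% ± 0.782 in KO, and had 1.52% ± 2.63 in the first and 2.46% ± 0.239 in the last in WT. *Prdm1* was highest in the second, at 39.7% ± 20.3 in WT and 10.8% ± 9.42 in KO, and had 8.39% ± 10.4 in the first, 5.41% ± 5.16 in the ninth and 15.6% ± 0.967 in the last in WT. *Ebf1* held 46, 56 and 48 H3K36me2 peaks in WT and 45, 12 and 14 in KO, so that the male KO library had about as many peaks as WT but narrower ones, its widest being 2505 bp against 4476 to 5059 bp in WT.

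**Figure D4:**
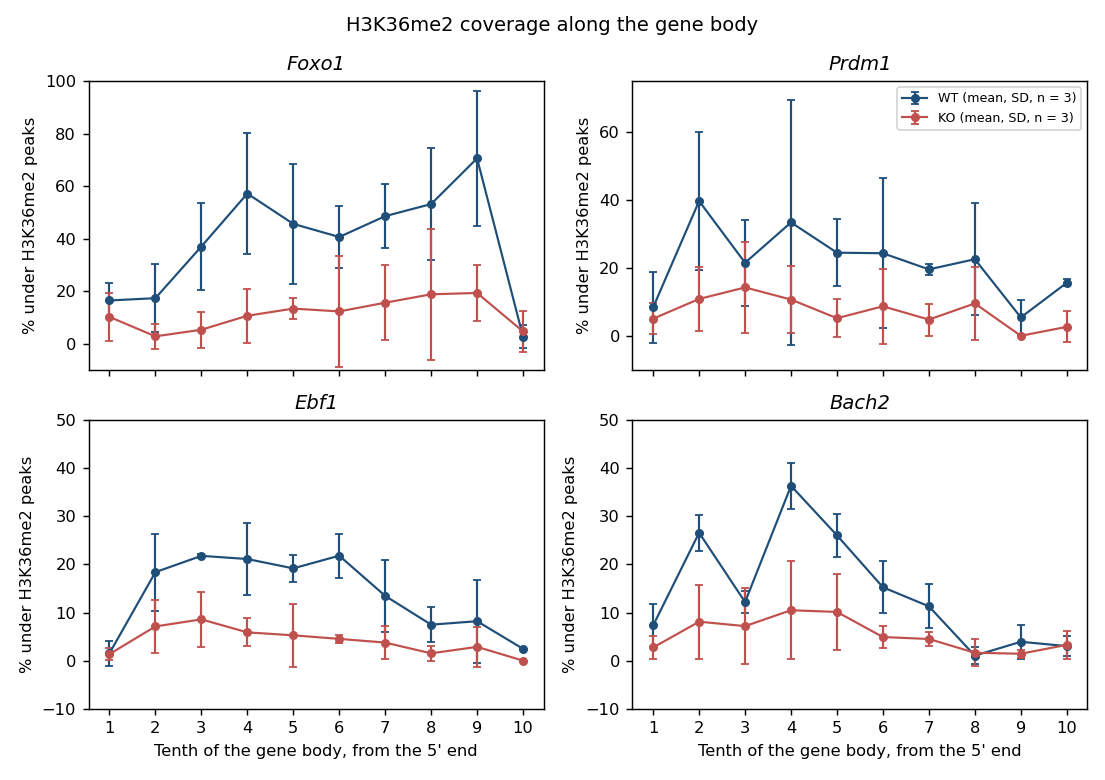
Percent under H3K36me2 peaks (y axis) in 10 equal segments of the gene from its 5′ end to its 3′ end (x axis) for *Ebf1*, *Prdm1*, *Bach2* and *Foxo1*, as the mean of 3 libraries with SD. WT means lie above KO means in most segments, and *Foxo1* in WT rises to 70.5% in the ninth segment.

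Upstream of the genes the mark was extensive, also where the body lacked it. The 10 kb before the 5′ end of *Irf8* were under H3K36me2 peaks by 86.7%, 87.6% and 97.2% in WT and by 95.3%, 23.9% and 24.8% in KO. Those of *Irf4* were covered by 80.6%, 80.1% and 76.2% in WT and 58.8%, 49.96% and 28.9% in KO. At *Irf4* every WT library lay above every KO library, while for *Irf8* the male KO library was as high as WT and both female KO libraries were low.

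On the gene side of the same point the mark stopped. The first 10 kb of *Irf8* had 0%, 2.99% and 0% in WT and 5.01%, 0% and 0% in KO, and those of *Irf4* had 8.57%, 0% and 0% in WT and 0% in all KO libraries. Beyond the 3′ end it returned. The 10 kb after *Irf8* were covered by 40.03%, 63.5% and 84.0% in WT and 53.6%, 3% and 14.9% in KO, and those after *Irf4* by 23.9%, 49.15% and 35.4% in WT and 38.2%, 10.1% and 11.1% in KO. Both genes thus lay in gaps between H3K36me2 stretches, which KDM2A peaks covered largely at *Irf8* and, at *Irf4*, over more of the gene in WT than in KO, as the map of peaks in every library shows.

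Other members showed the same asymmetry at the start in each WT library. In KO, *Prdm1* and *Ebf1* did not show it in every library. *Ikzf1* had 62.1%, 81.6% and 63.3% before its 5′ end in WT and 53.25%, 15.65% and 53.3% in KO, against 38.0%, 41.7% and 0.1% after it in WT and 4.23%, 0% and 16.7% in KO. *Bach2* had 51.1%, 73.3% and 86.1% before it in WT and 51.4%, 22.5% and 17.9% in KO, against 29.9%, 12.5% and 8.84% after it in WT and 0% in KO. *Prdm1* had 39.3%, 66.9% and 61.2% before it in WT and 46.7%, 0% and 22.1% in KO. In KO replicate 2 its order was reversed, with 0% before and 5.97% after the 5′ end. At *Ikzf1*, *Pax5* and *Foxo1* every WT library lay above every KO library, narrowly for *Pax5* (50.14% against 49.54%). Of 11241 genes tested, 24.9% did so. *Pax5* had 56.5%, 50.1% and 66.0% in WT and 49.5%, 15.35% and 23.7% in KO, and *Foxo1* had 43.0%, 52.8% and 73.6% in WT and 37.5%, 27.4% and 29.55% in KO. *Pou2af1*, without the mark in its WT body, had 40.9%, 54.7% and 58.8% before it in WT and 38.8%, 50.6% and 32.0% in KO.

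*Ebf1* and *Bcl6* had less. *Ebf1* had 20.1%, 4.97% and 8.53% in WT and 20.1%, 0% and 0% in KO, and *Bcl6* had 9.54%, 45.6% and 40.3% in WT and 23.4%, 12.2% and 17.01% in KO. The peaks upstream belonged to long merged stretches, of 102286 bp before *Bach2*, 48971 bp at *Ikzf1*, 37154 bp at *Irf4*, 23670 bp at *Pou2af1* and 17545 bp at *Prdm1*. The 10 kb upstream held no other annotated gene for 7 of the members. Gm20388 and a pseudogene lie before *Irf8*, the noncoding Gm11999 before *Ikzf1* and the unclassified Gm37695 before *Ebf1*.

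In every WT library H3K36me2 covered more of the 10 kb before than of the 10 kb after the 5′ end in 10 of 10 members, a pattern seen in 17.9% of the 21938 protein-coding genes and in 20.02% of those of at least 10 kb. This comparison was chosen after the values had been seen. By mean in WT, 8003 of the 21938 genes had more before, 5518 more after and 8417 equal coverage. The percentages are therefore not shares of marked genes alone, and the contrast with the members is partly one of how much mark a gene carries. The members' median was 57.0% before and 8.83% after the 5′ end in WT and 31.0% and 2.05% in KO, beside 1.28% and 0.713% over all protein-coding genes in WT. In KO the 10 members kept the order by mean, 8 of them in each KO library, beside 33.7% of protein-coding genes by mean and 1907 of the 21938 in each KO library. It was also seen at 10 of 10 B cell markers, 10 of 30 other B cell transcription factors and 1 of 15 factors of other blood lineages in every WT library, as well as 4 of 8 T cell, 3 of 7 myeloid and 0 of 5 erythroid markers. Since B cell markers gave the same count, the pattern is not particular to these members.

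**Figure D5:**
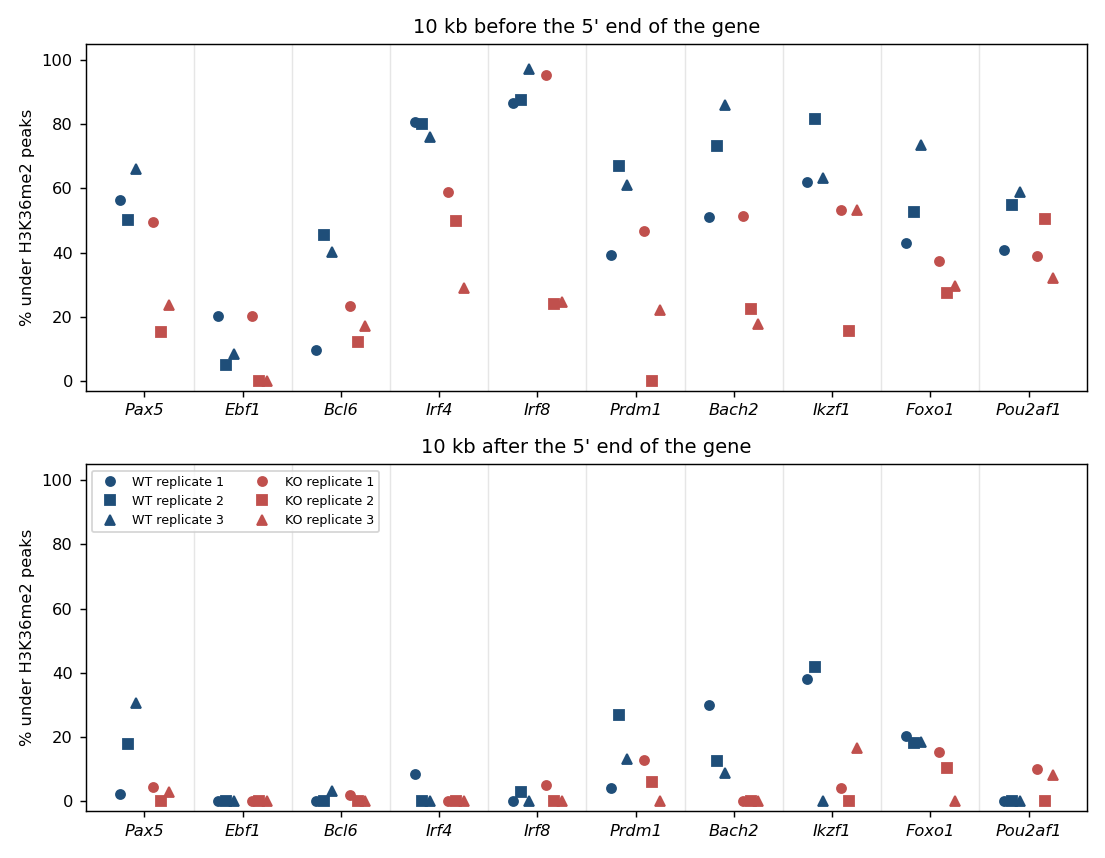
Percent of the 10 kb before (top) and of the 10 kb after (bottom) the 5′ end of each member under H3K36me2 peaks, with 1 point per library. In WT the points lie higher in the top panel for every member, as for *Irf8* at 86.7% to 97.2% before and 0% to 2.99% after. KO replicate 1 is the highest KO library before every member but *Ikzf1* and *Pou2af1*.

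The genotypes were then compared over these upstream 10 kb, in a fit likewise added after the values had been seen. All 10 members had a lower KO mean, and 4 of them (*Pax5*, *Irf4*, *Ikzf1* and *Foxo1*) did not overlap between genotypes, where 24.9% of 11241 genes tested had all WT above all KO libraries. Limma called 1.09% of those genes, 123 in number (0 with the replicate number as a block), and 0 of 10 members. The 123 were lower in KO in each case. Unadjusted p-values under 0.05 were found for 4 members and for 2514 genes. The differences were −42.5 ± 14.2 percentage points for *Irf8* (adjusted p = 0.0810), −39.6 ± 14.7 for *Bach2* (0.109), −33.1 ± 14.6 for *Irf4* (0.168) and −32.9 ± 14.0 for *Prdm1* (0.157). They were −28.2 ± 14.7 for *Ikzf1* (limma adjusted p = 0.232), −28.1 ± 14.4 for *Pax5* (0.225) and −24.98 ± 14.4 for *Foxo1* (0.268). Single libraries moved some of these by over 1.5 times, to −15.7 for *Ikzf1* without KO replicate 2, −21.4 for *Prdm1* without KO replicate 2 and −16.4 for *Foxo1* without WT replicate 3. The SEs followed the trend over genes more than each gene's own libraries. *Irf8*, with an SD of 41.0 in KO, and *Irf4*, with 15.4, received nearly equal ones. The adjusted p of *Irf8* thus understates the spread of its KO libraries.

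The median difference was −28.1 percentage points for the members and −8.19 over all genes tested, and the members also started from higher WT coverage. When each library was divided by its mean over coding genes, 8 of the 10 members turned higher in KO, *Irf8* among them, so the lower coverage upstream did not exceed the list-wide shift on that scale. Leaving out any 1 library left 0 genes called, the male KO library included. Without that library the *Irf8* difference was −66.2 (limma adjusted p = 0.0774, with 0.00924 to 0.930 over the alternatives), and with peaks of −log10 q of at least 2 it was −56.0 at the lowest of these p-values.

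KDM2A and H3K36me2 peaks shared few bases at the members. Over promoter windows and bodies, 9.73%, 10.9% and 14.2% of the bases under KDM2A in WT were also under H3K36me2 in the library of the same number, and 5.44%, 1.02% and 2.39% in KO. Genome-wide the values were 21.7%, 19.6% and 20.8% in WT and 12.8%, 3.53% and 4.32% in KO. *Bach2* had the most shared bases by length in the WT libraries, and the shares were 20.7%, 26.9% and 24.97% of its KDM2A in WT and 0.279%, 5.22% and 1.76% in KO. At *Irf8*, 7.92%, 2.06% and 2.54% of KDM2A bases were shared in the WT libraries, against 10.6%, 0% and 0.407% in the KO libraries. The numbers of the KDM2A and H3K36me2 libraries are labels and do not show that the same animals were used.

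Of 108 bound H3K36me2 intervals at the members, 38 belonged to both genotypes, 66 to WT alone and 4 to KO alone. These are 35.2%, 61.1% and 3.70%, beside 35.5%, 56.0% and 8.53% genome-wide. *Ebf1* and *Bach2*, the longest members, held 42 and 31 of them. WT-only intervals numbered 31 in *Ebf1* and 20 in *Bach2*.

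Other transcription factors set these values in context. Among 30 other B cell factors, 24 passed the filter on H3K36me2 body coverage, and all 24 had a lower KO mean. In 11 all WT lay above all KO libraries, where 28.7% of 9804 genes tested did. In this list *Tcf3*, *Id3* and *Bcl11a*, the last among the 11, passed only through WT, so the filter fixed their direction. *Spi1* (PU.1) had the highest mean of that list over the 6 libraries, with 42.1% in WT and 21.05% in KO, although *Lmo2* (44.3%) was higher in WT and *Ets1* (23.8%) in KO, and *Xbp1*, *Klf2*, *Id2* and *Relb* were at 0% in all libraries. Of 15 factors of other blood lineages 7 were tested, 6 had a lower KO mean and 2 did not overlap. *Tcf7*, a T cell factor, was the highest of the 15 at 56.5% in WT and 18.7% in KO, and 6 were at 0%, namely *Gata1*, the erythroid regulator, *Cebpa*, the myeloid one, *Tal1*, *Bcl11b*, *Foxp3* and *Eomes*. H3K36me2 in the body was thus found at factors of B cells and of other lineages. A lower KO mean was common in both lists, as it was over all protein-coding genes (10924 lower and 1835 higher).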

How the data were processed

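BWA alignment to GRCm38 and broad peak calling with MACS2 were done by the authors through nf-core/chipseq, and each library kept its own deposited list. The fold in each deposited list is a ratio over the local control without scaling across libraries. Deposited columns further hold −log10 p and −log10 q for every peak. The caller's version and read filters are not given in the sources used here. Read depth is unknown, so no counting error could be given, and a shallower library may yield fewer peaks. The 6 input libraries were not analysed here.

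A peak counted in promoter windows when it overlapped them by at least 1 bp, and coverage was the percent of bases under peaks. Each measure was tested over all protein-coding genes that passed its filter (a peak in all 6 libraries for folds, a mean coverage of at least 1% over the 6 libraries otherwise) with limma 3.58.1 under R 4.3.3 (a linear model with trended empirical Bayes variances), Benjamini-Hochberg adjustment and a threshold of 0.05. The script was tested on simulated data. For single values, 3 against 3 libraries allow no exact permutation p under 0.1. P-values set a difference against the spread between libraries of a group, which limma moderates toward a trend over all genes tested. An SE can therefore lie well above or below the spread of a gene's own libraries. Log2 folds were centred on each library's median. Intervals were peaks of the 6 libraries of an antibody merged where they overlapped. Python 3.11.15 and numpy 2.4.6 gave all other values.

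The members, the gene lists and the tests were chosen with earlier results of these data known. All members are named. Genes of the other lists are counted, and named if they had the highest or lowest mean H3K36me2 body coverage, or separated the genotypes in that coverage against the majority of all genes, which none did. Promoter sequences came from RefSeq on GRCm38.p6. Alternatives covered the replicate block, each library left out, stricter or equal numbers of peaks, window, filter, scale and centring.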

Additional observations from a re-analysis of the deposited data

How the results depend on the processing

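Same-numbered WT and KO libraries did not deviate together (correlations from −0.0692 to 0.0655, and from −0.1138 to 0.0853 for differing numbers). With 3 libraries per group this cannot show whether they were paired, and the numbers do match by sex. With the replicate number as a block, the 123 genes called for H3K36me2 upstream coverage became 0, and no other count of calls moved. The count was also 0 with 5 kb in place of 10 kb, 0 after division by the library mean over coding genes and 0 (lowest and highest) on leaving out any library, 12 with peaks of −log10 q of at least 2, and 24 with equal numbers of peaks. Leaving out 1 library gave 0 to 8 genes called for KDM2A body coverage, with 8 without KO replicate 1 and 4 without KO replicate 2. It gave 0 to 1567 for scaled H3K36me2 body coverage, with 1567 without KO replicate 1, the male library. H3K36me2 body fold gave 12 calls without centring. Members with a KDM2A promoter peak in all 6 libraries numbered 2 at −log10 q of at least 2. The 2 members with an H3K36me2 promoter peak in all 6 libraries became 0 with 1 kb windows, with the stricter q and with equal numbers of peaks. Asking for all 3 libraries of a genotype and none of the other left 3 KDM2A intervals particular to WT and 0 to KO.

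Division by the library mean over coding genes reversed KDM2A body coverage of *Irf8* (3.16, in units of the library mean) and *Bcl6* (0.0986), KDM2A promoter coverage of *Irf8* (1.41) and *Pou2af1* (0.387), and H3K36me2 body coverage of *Prdm1* (0.0609). It also reversed H3K36me2 upstream coverage of *Pax5* (0.999), *Irf4* (3.59), *Irf8* (0.895), *Bach2* (0.0938), *Ikzf1* (3.50), *Foxo1* (2.59), *Bcl6* (1.34) and *Pou2af1* (5.80). With the stricter q, H3K36me2 upstream coverage was lower in KO at 6 and higher at 3 of 9 members tested, *Irf4* among the 3 (8.61 percentage points). With equal numbers of peaks it was lower at 8 and higher at 2 of 10 members, and likewise with 5 kb upstream. Scaled body coverage of *Foxo1* reversed with the stricter q (−0.64), equal numbers of peaks (−0.87), a pseudocount of 5 (−0.57), genome share as the scale (−0.70) and a mean of at least 5% (−0.11). Of 613 member values over the alternatives, 539 kept direction and side of the threshold, 71 reversed and 3 passed it. The cause was not tested. The unknown depth limits every comparison of extent between lists.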
